A study of Mus musculus with 4 samples.

Results

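The genes described here belong to the interferon response and to innate sensing, the alarm system by which a cell detects foreign nucleic acid or microbial products. They were measured in murine embryonic stem cells (CM7/1) that carried either Hey1 or Hey2, repressors of transcription switched on by Notch signalling. The set holds 39 listed genes, and every probe set that the platform annotation gave 1 of these symbols alone was taken. In all, 38 of the 39 genes had such a probe set, with 67 probe sets between them, out of 18194 genes named on the array. The single probe set that reads Isg15 is also assigned to Gm9706, so it stands outside the 38.

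Each group holds 1 Affymetrix array of total RNA, 4 arrays in all. The groups were the Hey2 line after 1000 ng/ml doxycycline for 48 h (labelled induced), the uninduced Hey2 line, the Hey1 line after the same doxycycline treatment (labelled induced) and the uninduced Hey1 line. All 4 share the CM7/1 background, every array comes from cells carrying Hey1 or Hey2, and the sources used here do not say whether each line is 1 clone. Without replicates, the spread within a group is unknown, and a comparison of 2 arrays carries no p-value.

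In most cells, foreign RNA or DNA is bound by sensors such as Ifih1, Tlr3 or Aim2. Adaptors pass the signal of some sensors to the interferon regulatory factors, as Mavs does for Ifih1, while Aim2 assembles an inflammasome. Secreted interferon then acts through the receptors Ifnar1 and Ifnar2, and the complex of Stat2 and Irf9 with a further STAT protein switches on effector genes through an interferon-stimulated response element. Pluripotent stem cells are known for a weak interferon response and for expressing some effectors, the Ifitm genes among them, without any interferon.

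Values are log2 probe set summaries made by the authors, so a difference of 1 is 2-fold. A difference with doxycycline is induced minus uninduced, and a difference between the lines is Hey2 minus Hey1. The 4 arrays share a single distribution, and each had a median of 6.05. A gene is represented by its probe set with the highest mean, and it was compared if its mean over the 4 arrays reached 6.05, which 25 of the 38 members and 11551 of all genes did. The 13 members under this level were Ifih1, Dhx58, Tlr3, Tlr4, Irf2, Irf7, Irf8, Isg20, Ifit1, Ifit3, Usp18, Oasl2 and Psmb8. Tlr2 had the lowest mean of those kept (6.09) and Irf8 the highest of those left out (6.01). A low value on an array does not show that a transcript is absent.

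The probe sets of the introduced genes did not show the induction. Hey1 read 6.51 in induced and 6.73 in uninduced cells of the Hey1 line, and Hey2 read 4.34 in induced and 4.25 in uninduced cells of the Hey2 line. The sources used here do not say whether these probe sets can read the introduced transcripts, so "induced" below means the array labelled so. All 8 embryonic stem cell markers lay above the level filter, and none differed 2-fold in any comparison. Macrophages and leukocytes are known to express many interferon response genes strongly. Of 12 markers of such cells, 5 passed the filter, namely Cd68, Csf1r, Cd74, Laptm5 and Coro1a. Laptm5 ran from 10.44 to 11.04 and Cd68 from 8.76 to 9.96. The 7 that did not pass were Ptprc, Cd14, Lyz2, Adgre1, Itgam, Tyrobp and Fcer1g. The mean log2 value of all 12 was 6.26 in induced and 6.39 in uninduced cells of the Hey2 line. In the Hey1 line it was 6.37 and 6.33, and 0 of the 12 passed 2-fold in any comparison. In RNA from many cells, fewer cells of a type and less RNA per cell cannot be told apart.

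The promoter windows of the genes on which the results turn are shown first, to set Ifit2 beside its relatives Ifit3 and Ifit1 and to show that of Aim2. They run from 250 bases before to 50 bases after the annotated start, are RefSeq sequence of mouse build GRCm38.p6, and are written 5′ to 3′ along the gene. Capitals mark matches to 3 motifs searched on both strands. These were the core of the interferon-stimulated response element (2 GAAA blocks with any 2 bases between them), the palindrome bound by STAT dimers (TTCNNNGAA) and the E-boxes bound by Hey factors (CACGTG or CACGCG).
Ifit2, chr19:34550444-34550743, plus strand: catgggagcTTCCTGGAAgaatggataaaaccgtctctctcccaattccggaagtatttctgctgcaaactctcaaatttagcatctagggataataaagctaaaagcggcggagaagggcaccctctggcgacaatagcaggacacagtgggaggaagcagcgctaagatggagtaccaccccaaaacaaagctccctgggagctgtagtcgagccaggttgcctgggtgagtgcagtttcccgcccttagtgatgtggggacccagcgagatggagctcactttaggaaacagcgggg
Ifit2, chr19:34550838-34551137, plus strand: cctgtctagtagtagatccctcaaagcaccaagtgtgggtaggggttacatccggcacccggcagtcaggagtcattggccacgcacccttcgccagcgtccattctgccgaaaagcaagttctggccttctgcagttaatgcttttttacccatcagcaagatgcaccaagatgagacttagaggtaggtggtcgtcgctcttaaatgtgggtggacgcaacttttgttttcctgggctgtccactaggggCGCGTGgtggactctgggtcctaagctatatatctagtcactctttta
Ifit3, chr19:34583279-34583578, plus strand: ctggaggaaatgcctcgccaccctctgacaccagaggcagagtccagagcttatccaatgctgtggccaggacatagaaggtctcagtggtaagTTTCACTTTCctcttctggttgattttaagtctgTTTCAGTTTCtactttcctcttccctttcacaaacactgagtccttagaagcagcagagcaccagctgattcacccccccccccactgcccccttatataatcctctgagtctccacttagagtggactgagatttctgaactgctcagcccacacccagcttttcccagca
Ifit1, chr19:34640639-34640938, plus strand: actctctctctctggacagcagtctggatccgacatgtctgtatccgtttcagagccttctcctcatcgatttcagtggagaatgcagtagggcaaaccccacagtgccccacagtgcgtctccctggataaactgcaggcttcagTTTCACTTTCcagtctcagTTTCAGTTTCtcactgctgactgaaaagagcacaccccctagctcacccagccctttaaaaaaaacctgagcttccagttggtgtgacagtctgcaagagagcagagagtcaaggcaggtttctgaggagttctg
Aim2, chr1:173420354-173420653, plus strand: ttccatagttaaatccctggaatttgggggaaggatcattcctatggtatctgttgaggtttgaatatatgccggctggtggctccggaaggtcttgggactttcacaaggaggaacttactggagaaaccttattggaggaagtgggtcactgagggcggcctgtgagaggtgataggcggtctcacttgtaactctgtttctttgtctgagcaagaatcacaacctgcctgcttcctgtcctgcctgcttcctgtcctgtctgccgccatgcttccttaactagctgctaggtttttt

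Ifit3 and Ifit1 each hold 2 response element cores on the minus strand of their windows. Neither Ifit2 window holds one, but the upstream window holds a STAT palindrome and the downstream one an E-box. The Aim2 window holds none of the 3 motifs. Of the 36 members with a window, 13 (36.1%) hold a response element core, against 3.99% of all 27025 genes with a window. The STAT palindrome is in 14 members (38.9%), against 9.55% of all genes, and an E-box is in 2 (5.56%), Stat2 and Ifit2, against 17.2% of all genes. Overlapping matches were each counted, and a match is a description of the letters and not a measured site.

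No member passed the test for doxycycline, and the 1 with the largest difference, Ifit2, read higher in induced cells of both lines. At least 2-fold, 0 of the 25 compared members were higher or lower in either line. Of all genes, 0.745% passed 2-fold in the Hey2 and 0.355% in the Hey1 line. At 1.5-fold, Ifit2 was the single member past the threshold in each line, where 2.64% of all genes were higher in the Hey2 and 1.55% in the Hey1 line. It was past 1.5-fold in both lines at once, as were 0.632% of all genes. The median member difference was -0.01 for the Hey2 and -0.04 for the Hey1 line, beside medians of -0.02 and -0.01 over all genes compared. The same sign in both lines, which share no array, was found for 13 of the 25 members (52%) and 63.9% of all genes.

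**Figure D1:**
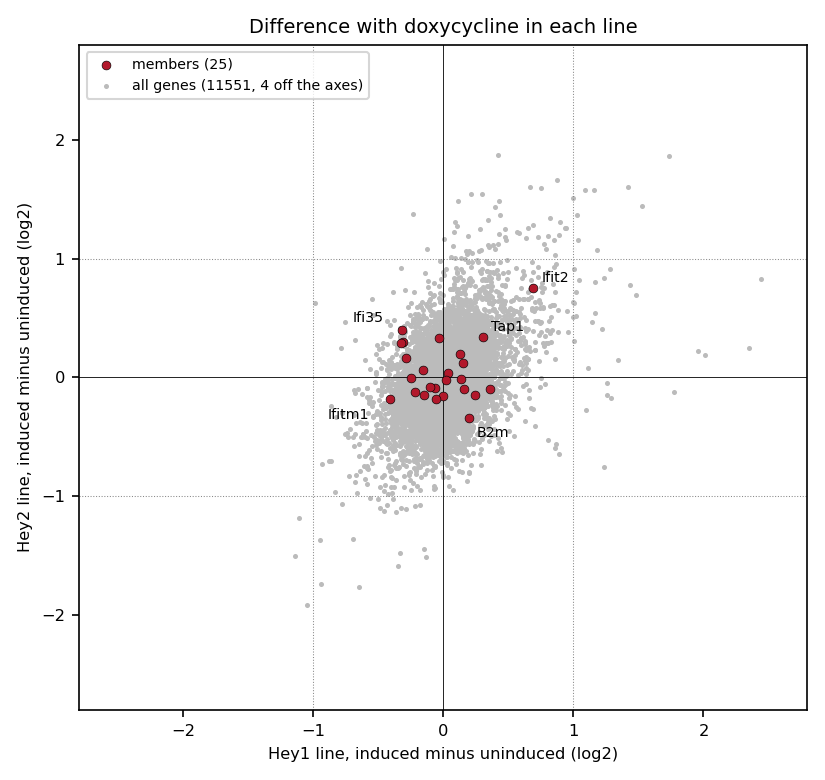
Difference between the induced and uninduced array on the log2 scale, in the Hey1 line (x axis) and the Hey2 line (y axis), for the 25 members above the level filter (red) and all 11551 genes (grey). Dotted lines mark 2-fold. The members lie around 0, and Ifit2 stands apart at 0.69 and 0.75.

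Ifit2 encodes an interferon-induced protein that binds RNA and restrains translation. Its log2 value was 7.34 in induced and 6.59 in uninduced cells of the Hey2 line, and 7.63 in induced and 6.94 in uninduced cells of the Hey1 line. Both induced arrays were above both uninduced arrays, so the groups did not overlap. Here and below, such an order of the arrays is only a description, since the share of all genes with it is not given. The differences of Ifit2 correspond to 1.68-fold for the Hey2 and 1.61-fold for the Hey1 line. Both were larger in size than the difference between the uninduced arrays of the Hey2 and Hey1 lines, which was -0.34.

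The common difference was tested with limma, which treated induction in both lines as repeats of a single treatment with the line as a block and 1 residual degree of freedom. It was 0.72 ± 0.08 (SE, 2 lines) for Ifit2, with an adjusted p of 0.215 over all genes. No member passed an adjusted p of 0.05, as did 0% of all genes. At an unadjusted p of 0.05, Ifit2 and Tap1 were higher and Ifitm1 lower among the 25 members, where 13.5% of all genes passed in either direction. With a robust prior variance fitted as a trend over level, limma called Ifit2 higher (adjusted p = 0.0253) and Ifitm1 lower (0.0242). Over all 7 alternative fits that tested it, the adjusted p of Ifit2 ran from 0.0253 to 1.00.

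Ifit1 and Ifit3, interferon-induced genes of the same family, lie beside it on chromosome 19. Ifit3 read 5.16 in induced and 5.60 in uninduced cells of the Hey2 line and 5.02 and 5.03 in those of the Hey1 line. Ifit1 read 4.04 and 4.18 in the Hey2 line and 3.92 and 4.04 in the Hey1 line. Both genes lay under the level filter on all 4 arrays, so the sizes of their differences are uncertain, and neither read higher in induced cells. Of the other relatives nearby, Ifit1bl1 had 0.25 and Ifit1bl2 0.28 in the Hey2 line, and both had values near 0 in the Hey1 line (-0.02 and -0.03), also under the level filter. Of the 10 protein-coding genes nearest to Ifit2 in the RefSeq order, 9 had a probe set, and their differences with doxycycline ran from -1.51 to 0.28 in the Hey2 and from -0.13 to 0.28 in the Hey1 line. The lowest was that of Acta2, smooth muscle actin, which read 8.30 in induced and 9.81 in uninduced cells of the Hey2 line.

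The 12 measured members with a response element core had a median difference with doxycycline of 0.02 for the Hey2 and -0.10 for the Hey1 line, beside -0.09 and -0.04 for the 23 without a core. Between the lines, the medians were 0.03 uninduced and 0.09 induced with a core, and -0.17 and -0.12 without. Over all measured genes, the medians were -0.04 for the Hey2 and -0.01 for the Hey1 line, and 0.03 uninduced and -0.02 induced between the lines. Both groups include members under the level filter, whose differences are uncertain in size. With a core, these were Ifih1, Irf2, Ifit1 and Ifit3. Ifit2, the member with the largest difference in both lines, belongs to those without a core in their windows. Sequence outside the windows was not searched, so this does not show that Ifit2 lacks a response element.

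Among the sensors and adaptors, Aim2 separated the lines, and none of the 8 differed 1.5-fold with doxycycline. Aim2, the sensor of cytosolic DNA that assembles an inflammasome, read 7.90 in induced and 7.99 in uninduced cells of the Hey2 line, and 5.67 in induced and 5.51 in uninduced cells of the Hey1 line. Both Hey2 arrays were above both Hey1 arrays. With doxycycline the values differed by -0.10 (Hey2 line) and 0.16 (Hey1 line).

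Aim2 was 5.60-fold higher in the Hey2 line between the uninduced arrays and 4.70-fold higher between the induced arrays. Both Hey1 arrays lay under the median of all values, so it entered the comparison through the Hey2 line. It was 1 of 2 members past 2-fold between the uninduced arrays, with Ifi35, and the single one between the induced arrays. Of all genes compared, 1.84% and 1.47% passed 2-fold in these comparisons, and 0.909% passed it in both with the same sign. Its line difference in limma was 2.36 ± 0.10 (SE, 2 arrays a line), higher in the Hey2 line with an adjusted p of 0.0320. The adjusted p stayed between 1.39e-06 and 0.0439 over the 7 alternatives that tested it. In that fit, 3.13% of all genes were called higher and 1.61% lower in the Hey2 line. The line, the Hey factor it carries and any difference between the cell clones cannot be told apart.

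Aim2 lies among the PYHIN genes on chromosome 1, and 5 of its 10 nearest protein-coding genes were measured, 1 of them (Cadm3) above the level filter. Their differences, Hey2 minus Hey1 line, ran from -0.23 to 0.32 between the uninduced arrays and from -0.08 to 0.15 between the induced arrays. Ifi213 and Ifi209, PYHIN genes beside Aim2, read at most 4.08 on any array.

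The other sensors and adaptors varied little. Mavs, the mitochondrial adaptor of the RNA sensors, read 9.43 in induced and 9.45 in uninduced cells of the Hey2 line and 9.84 and 9.71 in those of the Hey1 line. The Hey2 arrays lay below the Hey1 arrays, with a fitted difference of -0.34 ± 0.09 (SE) that did not pass (adjusted p = 0.0978 by limma). Its second probe set had -0.36 between the uninduced arrays and -0.29 between the induced arrays. Myd88, the adaptor of most Toll-like receptors, ran from 8.01 to 8.30, and Tlr2, a receptor for bacterial lipoproteins, from 5.91 to 6.24. The RNA sensor Ifih1, its regulator Dhx58 and the receptors Tlr3 and Tlr4 read at most 5.55 on every array.

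**Figure D2:**
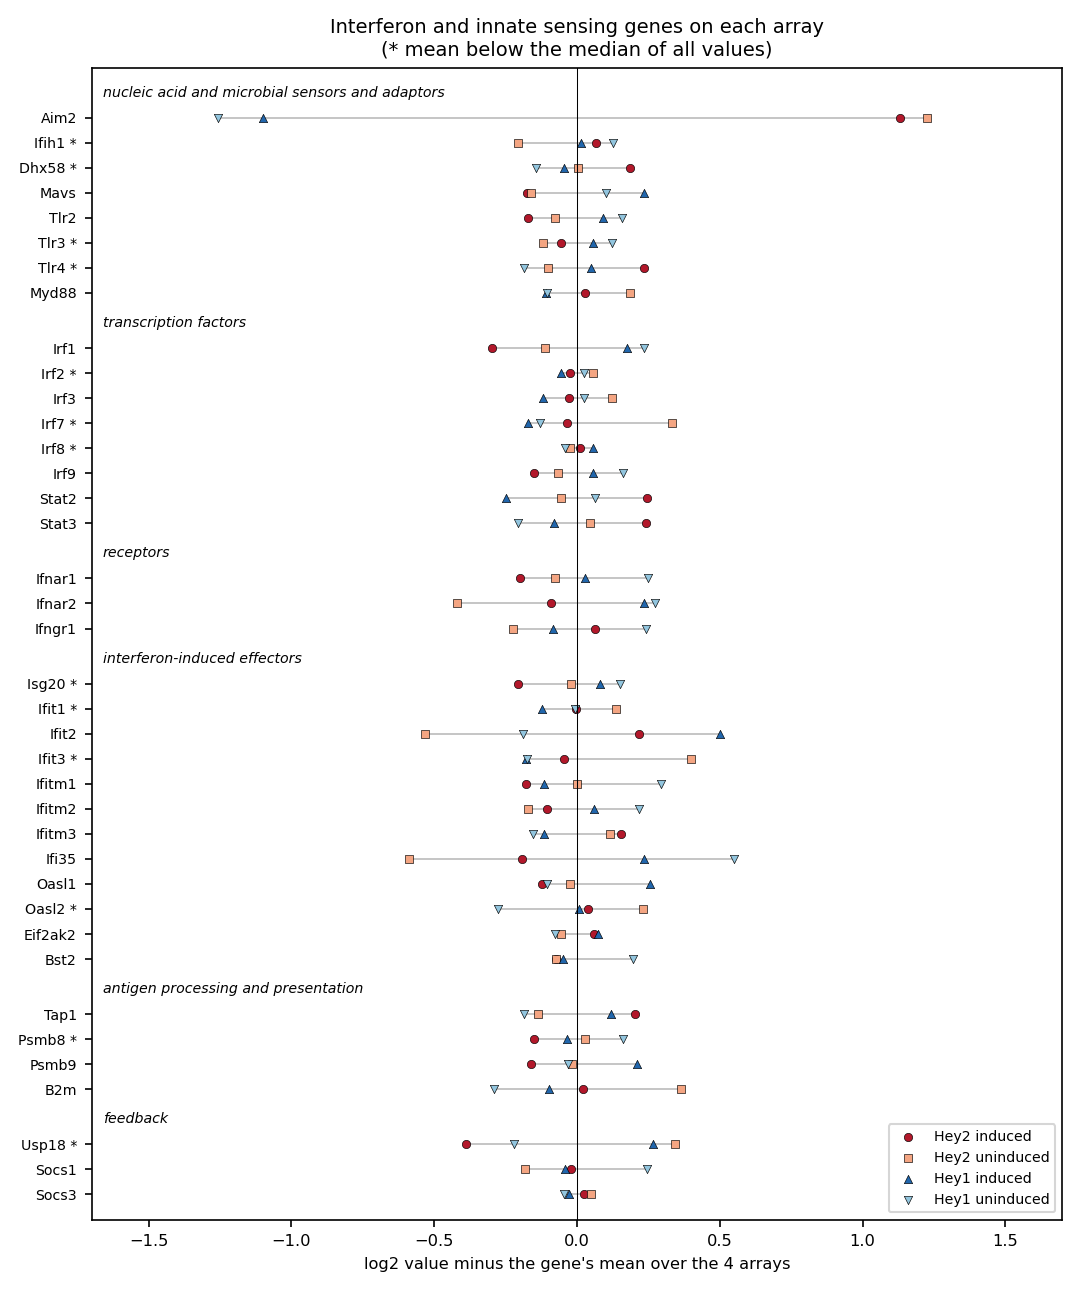
Log2 value of each of the 38 measured members on each array minus the gene's mean over the 4 arrays, grouped by role. Asterisks mark the 13 genes whose mean lies below the median of all values. Aim2 spans 2.49 with the Hey2 arrays on the right, Ifi35 spans 1.14 with the Hey2 arrays on the left, and Ifit2 spans 1.03 with the induced arrays on the right.

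The range over the 4 arrays was 2-fold or more for 3 of the 25 compared members, Aim2, Ifi35 and Ifit2, or 12%. Of all genes compared, 4.35% had such a range. Aim2 passed the level filter only through the Hey2 line, where it is high, and over all 38 measured members the share was 7.89%. The count is therefore only a description. The median range was 0.41 for the members and 0.34 for all genes.

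None of the transcription factors reached 1.5-fold in any comparison at its probe set with the highest mean. The second probe set of Irf8, under the level filter, had -0.66 in the Hey2 and -0.23 in the Hey1 line with doxycycline. Irf1, which acts downstream of interferon gamma, read 8.45 in induced and 8.63 in uninduced cells of the Hey2 line and 8.92 and 8.98 in those of the Hey1 line. The lines did not overlap, with a fitted difference of -0.41 ± 0.08 (SE, adjusted p = 0.0748 by limma). Stat3, a transducer of LIF signalling in stem cells, read 10.14 in induced and 9.95 in uninduced cells of the Hey2 line and 9.82 and 9.70 in those of the Hey1 line. Again the lines did not overlap, and the Hey2 arrays were higher, with a fitted difference of 0.29 ± 0.08 (SE, adjusted p = 0.112 by limma). Not all other probe sets of Stat3 kept this order. Their differences were 0.18, -0.34 and 0.10 between the uninduced arrays, and 0.23, 0.16 and -0.07 between the induced arrays.

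The parts of the complex that acts at the response element were above the filter. Irf9, its DNA-binding subunit, ran from 7.82 to 8.13, and Stat2 from 6.39 to 6.88. Irf3, the factor that sensors activate, ran from 9.43 to 9.68, while Irf7, which amplifies the response, ran from 4.52 to 5.03. Irf2, an antagonist of Irf1, ran from 3.25 to 3.36, and Irf8, a factor of myeloid cells, from 5.97 to 6.07. With doxycycline, Stat2 differed by 0.30 in the Hey2 and -0.31 in the Hey1 line, and its second probe set by -0.02 and 0.28.

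The 3 interferon receptor genes read lower in uninduced cells of the Hey2 line than in those of the Hey1 line, but none passed the line test. Ifnar2, a chain of the type I interferon receptor, read 8.12 in induced and 7.79 in uninduced cells of the Hey2 line and 8.44 and 8.48 in those of the Hey1 line. The Hey2 arrays lay below the Hey1 arrays. The difference was -0.69 between the uninduced arrays and -0.33 between the induced arrays, and the fitted difference was -0.51 ± 0.12 (SE, adjusted p = 0.0884 by limma).

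All 3 probe sets of Ifnar2 were lower in the Hey2 line in both states, the other 2 with differences of -0.57 and -1.26 between the uninduced arrays and of -0.26 and -1.34 between the induced arrays. These 2 lay under the level filter. Ifnar1, the other chain, had -0.33 and -0.23 in these comparisons. Ifngr1, a chain of the interferon gamma receptor, had -0.47 between the uninduced arrays and 0.15 between the induced arrays, so its lines did not keep an order.

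Among the effectors, Ifi35 had the largest difference between the lines, and it read lower in the Hey2 line. Ifi35, an interferon-induced leucine zipper protein, read 7.91 in induced and 7.51 in uninduced cells of the Hey2 line, and 8.33 in induced and 8.65 in uninduced cells of the Hey1 line. Both Hey2 arrays were below both Hey1 arrays. The difference was -1.14 between the uninduced arrays and -0.43 between the induced arrays. The fitted difference of -0.78 ± 0.19 (SE) did not pass over all genes (adjusted p = 0.0929 by limma). Its other 2 probe sets had -0.29 and -0.65 between the uninduced arrays and -0.39 and -0.33 between the induced arrays, so the sign was shared and the size was not. Of its 10 nearest protein-coding genes 9 passed the filter, and over all 10 the difference between the uninduced arrays ran from -0.06 to 0.47.

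Ifitm1, Ifitm2 and Ifitm3, which block entry of enveloped viruses, were all read far above the median. Ifitm1 read 13.11 in induced and 13.29 in uninduced cells of the Hey2 line, and 13.18 in induced and 13.59 in uninduced cells of the Hey1 line. Both induced arrays were below both uninduced arrays, with a fitted difference of -0.29 ± 0.10 (SE, 2 lines, adjusted p = 0.339 by limma). Ifitm3 was higher in the Hey2 line by 0.27 in both states, and Ifitm2 had differences of -0.39 between the uninduced arrays and -0.16 between the induced arrays. Neither passed the line test, with adjusted p = 0.120 and 0.158 by limma. The genes of this family resemble each other in sequence, and whether their probe sets also read a relative was not tested.

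Other effectors were steadier. Bst2, the tether that holds budding virus at the cell surface, ran from 10.33 to 10.60, and Eif2ak2, the RNA-activated kinase that stops translation, from 7.85 to 8.0. The third probe set of Eif2ak2 read 6.55 in induced and 6.36 in uninduced cells of the Hey2 line and 7.22 and 6.60 in those of the Hey1 line. With doxycycline, Oasl1, a relative of the oligoadenylate synthetases, differed by -0.10 in the Hey2 and 0.36 in the Hey1 line. Isg20, an RNA exonuclease, and Oasl2, a further such relative, read at most 5.10. The shared probe set of Isg15 and Gm9706 read 6.08 in induced and 6.28 in uninduced cells of the Hey2 line and 6.45 and 6.36 in those of the Hey1 line.

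None of the antigen presentation genes passed a test. B2m, the light chain of class I molecules, read 10.59 in induced and 10.94 in uninduced cells of the Hey2 line, and 10.47 in induced and 10.28 in uninduced cells of the Hey1 line. Its difference between the uninduced arrays was 0.66, or 0.54 at its second probe set, and 0.12 and 0.07 between the induced arrays. The fitted difference of 0.39 ± 0.15 (SE) did not pass (adjusted p = 0.193 by limma).

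Tap1, a subunit of the peptide transporter, read 6.51 in induced and 6.17 in uninduced cells of the Hey2 line and 6.42 and 6.12 in those of the Hey1 line. Both induced arrays were above both uninduced arrays, with a fitted difference of 0.32 ± 0.08 (SE, 2 lines, adjusted p = 0.283 by limma). Its second probe set, under the level filter, had -0.16 in the Hey2 and 0.15 in the Hey1 line. The immunoproteasome gene Psmb9 had -0.15 and 0.24 in these comparisons, and its partner Psmb8 read at most 5.25.

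Of the feedback genes, Socs3, an inhibitor of STAT signalling that LIF induces, hardly varied, between 11.95 and 12.04. Socs1, a further inhibitor of STAT signalling, ran from 6.12 to 6.55. Usp18, which removes Isg15 from proteins and damps the receptor, read 3.43 in induced and 4.16 in uninduced cells of the Hey2 line, and 4.08 in induced and 3.59 in uninduced cells of the Hey1 line. All 4 of its values lay under the level filter.

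Across the 25 members, the median difference between the lines was below 0 between the uninduced arrays and near 0 between the induced ones. At 1.5-fold between the uninduced arrays, Aim2 and B2m were higher and Ifi35 and Ifnar2 lower, where 4.42% of all genes were higher and 4.19% lower. Between the induced arrays, Aim2 alone passed 1.5-fold, where 3.86% of all genes were higher and 2.49% lower. That median was -0.23 between the uninduced arrays and -0.02 between the induced arrays, beside 0.02 and -0.02 over all genes. Over all 38 measured members the first of these medians was 0.02.

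In the fit over both states, 10 members had a positive and 15 a negative line difference, where 48.7% of all genes were negative. At an unadjusted p of 0.05, 3 members were higher in the Hey2 line (Aim2, Stat3 and Ifitm3), where 15.9% of all genes were, and 8 were lower, where 13.8% were. The 8 were Mavs, Tlr2, Irf1, Ifnar1, Ifnar2, Ifit2, Ifitm2 and Ifi35. After adjustment over all genes, only Aim2 passed. The sign was the same in both states, which share no array, for 19 of the 25 members (76%) and 72.1% of all genes.

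**Figure D3:**
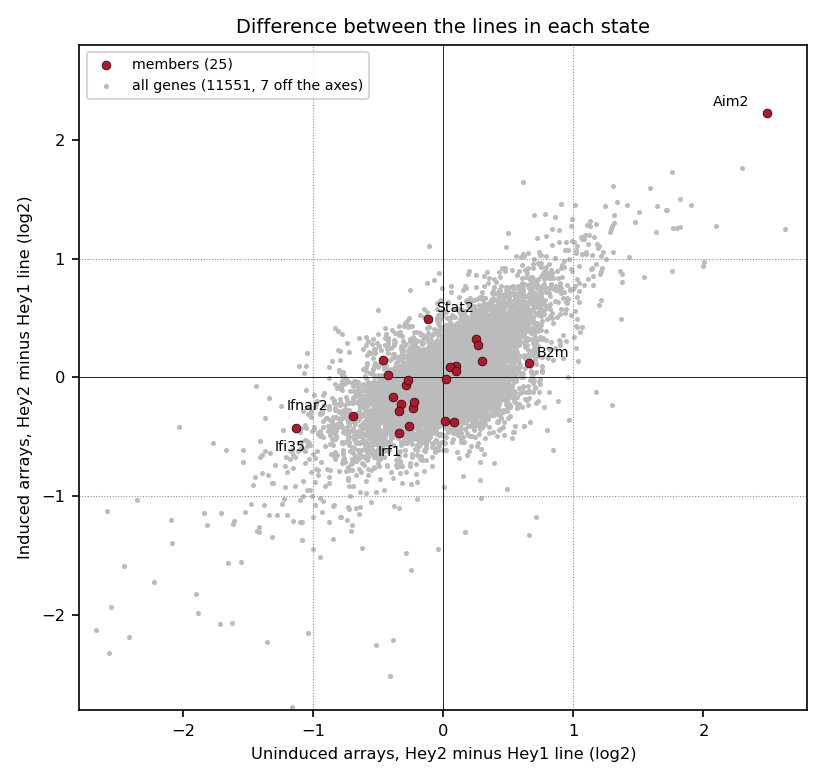
Difference between the Hey2 and the Hey1 line on the log2 scale, for the uninduced arrays (x axis) and the induced arrays (y axis), for the 25 members above the level filter (red) and all 11551 genes (grey). Dotted lines mark 2-fold. Aim2 lies at 2.49 and 2.23, and the next largest member, Ifi35, at -1.14 and -0.43.

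The differences with doxycycline were smaller than those between the uninduced lines for most members, as for most of all genes. The Hey1-line difference exceeded the uninduced difference in size for 8 of the 25 members (32%) and 31.9% of all genes, and the Hey2-line difference did so for 7 (28%) and 42.0% of all genes. These comparisons share an uninduced array. In both lines at once the difference was the larger for 7 members (28%) and 22.6% of all genes. The members were Irf3, Stat2, Ifit2, Oasl1, Eif2ak2, Tap1 and Psmb9. Of these 7, Ifit2, Tap1 and Eif2ak2 were higher and Irf3 lower in both lines, each at its probe set with the highest mean. In the Hey2 line, the other probe sets of Irf3 had -0.21, 0.15 and 0.34, and those of Eif2ak2 had -0.02 and 0.19. Those of Tap1, all under the level filter, had -0.16, -0.05 and -0.17 in the Hey2 line. In the Hey1 line they had 0.15, -0.28 and 0.08.

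**Figure D4:**
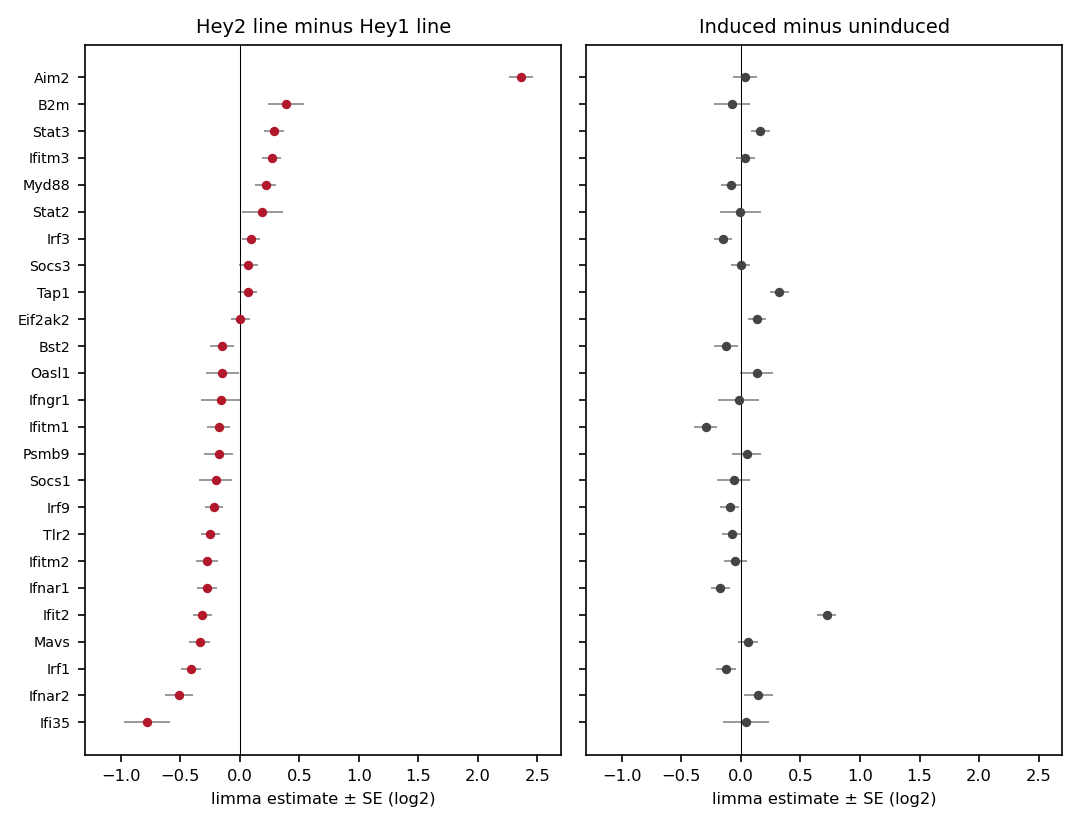
Differences from the additive limma fit on 4 arrays for the 25 members, with bars of 1 standard error, for the Hey2 minus the Hey1 line (left) and induced minus uninduced (right). Only the line difference of Aim2 (2.36) passed an adjusted p of 0.05, and the largest difference with doxycycline was that of Ifit2 (0.72).

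Other genes of the pathway were taken from a list of 110 symbols, some of them an older and a newer symbol of the same gene. Of these, 90 were measured and 53 passed the level filter. In the line test, 1 of the 53 rose in the Hey2 line after adjustment, Lgals9, and 2 fell, Oas1a and Ifnlr1. At an unadjusted p of 0.05, 3 were higher (5.66%) and 14 lower (26.4%), against 15.9% and 13.8% of all genes. With doxycycline, 0 passed after adjustment by limma, and 4 were higher and 4 lower at an unadjusted p of 0.05, against 7.00% and 6.48% of all genes.

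Oas1a, a synthetase that answers double-stranded RNA by making the activator of an RNase, read 8.59 in induced and 8.36 in uninduced cells of the Hey2 line, and 9.81 in induced and 9.97 in uninduced cells of the Hey1 line. The lines did not overlap. The fitted difference was -1.41 ± 0.13 (SE), with an adjusted p of 0.0368 by limma that ran up to 0.0507 in the alternatives. Ifnlr1, a chain of the interferon lambda receptor, fell by 0.53 ± 0.08 (SE) in the Hey2 line (adjusted p = 0.0493 by limma, up to 0.164 in the alternatives).

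Lgals9, an interferon-inducible galectin, read 7.24 in induced and 7.19 in uninduced cells of the Hey2 line, and 6.42 in induced and 6.16 in uninduced cells of the Hey1 line. The Hey2 arrays lay above the Hey1 arrays, by 0.93 ± 0.09 (SE) in the fit, with an adjusted p of 0.0413 by limma that ran up to 0.0638 in the alternatives. Xaf1, an interferon-induced factor that promotes cell death, had -1.41 between the uninduced arrays and -0.67 between the induced arrays, and a fitted difference of -1.04 ± 0.20 (SE) that did not pass (adjusted p = 0.0679 by limma).

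Ikbke, a kinase that activates interferon regulatory factors, had -1.23 and -1.02 in these comparisons, but lay under the level filter by its mean. Parp12, an interferon-induced ADP-ribosyltransferase, had -0.67 and -1.11. It was higher in induced cells of both lines, by 0.40 in the Hey2 and 0.83 in the Hey1 line, and its fitted line difference of -0.89 ± 0.13 (SE) had an adjusted p of 0.050 by limma, just outside the threshold.

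Sp110, an interferon-induced nuclear body protein, differed on 1 array. It read 5.80 in induced and 5.62 in uninduced cells of the Hey2 line, and 8.01 in induced and 6.0 in uninduced cells of the Hey1 line. The induced Hey1 array alone was high. Its other 2 probe sets stayed between 3.68 and 5.40 on all arrays, and their differences in the Hey1 line were -0.13 and -0.03.

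Several probe sets of a member often disagreed in sign. Of the 16 members with more than 1 probe set, all sets had the same sign for 4 in each line with doxycycline, 8 between the uninduced arrays and 9 between the induced arrays. Aim2 and Ifit2 each have 1 probe set, so no second reading of their differences exists here.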

How the data were processed

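The authors deposited log2 values per probe set, made with RMA from single-colour arrays of biotin-labelled RNA, per the labels. RMA corrects background, normalises arrays by quantiles and summarises probes, so a shift of all genes together cannot be seen. The sources used here name no version, chip description file or build. Values from 2.67 to 15.2 fit a log2 scale. With 4 arrays, precision is limited by their number.

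Of 45101 probe sets, 34958 had a single gene symbol in the platform annotation, 932 several and 9211 none, and only the first were used. Identifiers of 34754 matched the RefSeq table of GRCm38.p6, all with the same symbol. The filter uses the mean of the 4 arrays, since a filter on the highest value favours genes that differ.

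An additive model with line and doxycycline state was fitted to all 11551 genes using R 4.3.3 and limma 3.58.1 (lmFit, eBayes, Benjamini-Hochberg adjustment at 0.05). It was also run on simulated data, with equal changes added to both lines over noise drawn independently for each array. That run cannot show how the fit performs on the real arrays. No label names separate cultures. In this model the 1 residual degree of freedom is how far the doxycycline difference departs between the lines, moderated by the spread over all genes. The standard errors and p-values therefore cover no spread between repeat cultures, and what they cover may be technical. Everything else used Python 3.11.15. Named genes are all members, and other pathway genes past 2-fold in a comparison of 2 arrays or called by limma. The members and lists were chosen with earlier results of these data known. Alternatives were other level filters, averaging the probe sets of a gene, cyclic loess, an offset of 32 on the linear scale, a 1.5-fold threshold, the other line's uninduced array, a level-dependent robust prior variance and no block.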

Additional observations from a re-analysis of the deposited data

Results flagged for a closer look

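Usp18, the deubiquitinase that removes Isg15, moved in opposite directions in the lines, by -0.73 in the Hey2 and 0.49 in the Hey1 line, and the difference of the 2 (Hey2 line minus Hey1 line) was -1.22. It was the single one of the 38 measured members with opposite signs and a gap of at least 2-fold. The share of all genes that meet this rule is not given here, so the count does not set the members apart. The difference was not tested, since it uses all 4 arrays and leaves none for the spread. All 4 values lay under the level filter, at 4.16 or lower, and the gene has 1 probe set.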

How the results depend on the processing

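With the other line's uninduced array in place of a line's own, 2 members passed 2-fold in the Hey1 line (Aim2 lower and Ifit2 higher) and 1 in the Hey2 line (Aim2 higher), and the medians became 0.13 and -0.13. At 1.5-fold the counts were 1 in each line, 4 between the uninduced arrays and 1 between the induced arrays. Aim2 and Ifi35 did not reach a filter at the 75th percentile (8.31), which left 10 members, 0 past 2-fold in either comparison of the lines and a median of -0.086 between the uninduced arrays. That median was 0.016 without a filter. With the mean of probe sets, 1 member (Aim2) passed 2-fold between the uninduced arrays. The line test called 4 members with the 75th percentile filter, 2 with the mean of probe sets (Aim2 and Ifnar2), 2 with the offset (Aim2 and Irf1) and 8 with the robust prior variance, which also called 2 for doxycycline. Over all genes, the line test called 547, against 89 without a filter, 111 with the filter on the highest value, 1928 with that at the 75th percentile, 1283 with the offset, 2902 with the robust prior and 5 without the replicate block. For doxycycline it called 0, against 18 with the 75th percentile filter and 415 with the robust prior. Without the block, members called stayed at 1 for the line and 0 for doxycycline. Of 586 single member values under an alternative, 544 moved by at most 0.25 and 42 by more, 32 of them with the other uninduced array. No difference past 2-fold in the values as reported changed sign, but with the other uninduced array Aim2 had 2.39 in the Hey2 and -2.33 in the Hey1 line, where its own uninduced arrays gave -0.10 and 0.16. The additive fit leaves no residual degrees of freedom once an array is removed, so no array was left out. The labels give no replicate numbers, so the block is the line in the test for doxycycline and the doxycycline state in the test for the line.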

Other observations

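Nfkbia, which encodes the inhibitor that holds NF-kappaB in the cytoplasm and is itself a target of NF-kappaB, was lower in induced cells of both lines at each of its 5 probe sets. It belongs to the list of other pathway genes, but falls outside the rule for naming them and was chosen after its values were seen. Its brightest probe set read 10.91 in induced and 11.80 in uninduced cells of the Hey2 line, and 11.16 in induced and 11.84 in uninduced cells of the Hey1 line. Both induced arrays were below both uninduced arrays. The differences ran over the probe sets from -0.91 to -0.60 in the Hey2 and from -0.70 to -0.45 in the Hey1 line. The fitted difference was -0.78 ± 0.09 (SE, 2 lines), with an adjusted p of 0.215 by limma that ran from 0.000142 to 1.00 in the alternatives. The NF-kappaB subunits Relb and Rela fall outside the same rule. Relb had 0.30 in the Hey2 and 0.24 in the Hey1 line, with an adjusted p of 0.311 by limma. Its difference between the uninduced arrays was of similar size, at 0.26. Rela went the other way, with -0.03 in the Hey2 and -0.15 in the Hey1 line. Activity of NF-kappaB was not tested.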
